A study of Mus musculus with 8 samples.

Results

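DNA methyltransferases, the TET dioxygenases and Polycomb proteins set and read chemical marks on DNA and histones, and 10 of their genes were followed here in single hematopoietic stem cells (HSCs): Dnmt1, Dnmt3a, Dnmt3b, Tet1, Tet2, Tet3, Asxl1, Ezh1, Ezh2 and Bmi1. They were chosen by name, as regulators of DNA methylation and of Polycomb repression with known roles in HSCs, and all 10 were among the 10720 genes of the expression table. Dnmt1 and Ezh2 were the most abundant of them in both genotypes. In pooled cells labelled KO compared with those labelled WT, Asxl1, Tet2, Tet3 and Bmi1 transcripts were at least 1.5 times as abundant. Tet3 was below 1.5-fold once the cells richest in cell-cycle transcripts were left out. Pooled Dnmt1 transcripts were 1.71 times less abundant, a difference that was much smaller once 71 WT cells rich in oocyte transcripts were left out. At equal depth, the share of cells with a Dnmt1 transcript differed by -13.9 points, KO minus WT. This difference in share was -12.1 points without the cells rich in oocyte transcripts. Within each genotype, Dnmt1 and Ezh2 were higher in the cells richest in cell-cycle transcripts. Their ratios to the other cells were 3.01 and 2.35 in WT and 4.25 and 4.32 in KO. Without the WT cells rich in oocyte transcripts, the WT ratio of Dnmt1 was 2.26.

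DNA methylation in mammals is copied to the new strand after replication by Dnmt1 and laid down on unmethylated DNA by Dnmt3a and Dnmt3b, while the Tet enzymes oxidize 5-methylcytosine and so open the way to its removal. Polycomb repressive complex 2 (PRC2) methylates lysine 27 of histone H3 through Ezh1 or Ezh2, and Polycomb repressive complex 1 (PRC1), of which Bmi1 is a subunit, ubiquitinates histone H2A. Asxl1 is the partner of the H2A deubiquitinase Bap1 and is also linked to PRC2 function. In blood, loss of Dnmt3a, Tet2 or Asxl1 function is known from clonal hematopoiesis and myeloid disease, Dnmt1 and Bmi1 are needed for HSC self-renewal, and Ezh2 is known to be expressed mainly in dividing cells, whereas Ezh1 is also found in resting ones.

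The study asked how Med23, a subunit of the Mediator complex that links transcription factors to RNA polymerase II, acts in HSCs. Single HSCs were sorted from bone marrow of adult C57BL/6 mice as lineage-negative, Sca-1 and c-Kit positive cells that were CD150+, CD34- and CD48-, picked by hand and sequenced from the 3′ end with unique molecular identifiers (UMIs), which count captured transcript molecules. KO mice carried Mx1-cre and floxed Med23 (Mx1-cre+ Med23 L/L) and WT mice were floxed littermates without the Cre (Mx1-cre- Med23 L/L). The study's methods induced deletion with poly(I:C), which acts through interferon on the Mx1 promoter of the Cre transgene, so the Cre is not restricted to HSCs, and whether the WT mice of this experiment received poly(I:C), and how many mice were used, is not given in the sources used here. The labels name 4 libraries per genotype, but the table names a cell by its genotype and a number alone, so that each genotype was treated as 1 pool and no difference between genotypes had a replicate check. Library batch and genotype therefore cannot be told apart for any cell, and less RNA per cell and fewer cells with the RNA cannot be told apart in a pooled level.

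The table held 304 WT and 282 KO cells, of which 259 and 234 had at least 2000 detected genes and 20000 UMIs in the table and were kept. Their depth was 20038 to 496293 UMIs per WT cell (median 59649) and 20027 to 467384 per KO cell (median 50281). Levels are given as counts per 1000000 UMIs of the pool (CPM), with an exact 95% Poisson interval, and differences as the log2 ratio of CPM, KO over WT, with an exact 95% Clopper-Pearson interval; these intervals cover counting error only. The targeted gene gave no clear check of the label: Med23 was counted 122 times in WT cells (5.68 CPM) and 117 times in KO cells. Its log2 ratio was 0.35, with an interval (-0.03 to 0.73) that held 0, and 28 of the KO UMIs came from 1 cell. With each cell sampled down to 20000 UMIs, Med23 was seen in 8.49% of WT cells (5.40 to 12.6%) and 5.98% of KO cells (3.31 to 9.83%). The paper reports efficient loss of Med23 after poly(I:C). A 3′ count does not show whether the deleted part of Med23 was present, so every direction below is one between cells labelled KO and cells labelled WT. All 16 HSC markers on a fixed list were in the table, every kept cell had a UMI of at least 1 of them, and their summed level was 1831 CPM in WT and 1880 in KO, but 7 were higher and 9 lower in KO. Among genes of the sort markers, Slamf1, which encodes CD150, had a log2 ratio of -2.26 (-2.53 to -1.99), Ly6a of -0.53 and Kit of -0.45. Of the markers sorted as negative, Cd34 had a log2 ratio of 0.77 and Cd48 of -0.37 (-0.78 to 0.02). Of other cell types, oocyte transcripts stood out: 32 of 36 listed genes were in the table, their sum ranged from 0 to 62963 CPM over WT cells and from 0 to 1905 CPM over KO cells, and all 32 were lower in KO. The 71 WT and 3 KO cells with over 1000 CPM of this list are called oocyte-transcript cells below, and 7 cells lay within 10% of that limit. Of 8 listed neutrophil genes 3 were in the table and did not move together: Prtn3 stood at 82.7 CPM in WT and 267.9 CPM in KO, whereas S100a8 (17.6 and 8.22 CPM) and S100a9 (6.01 and 3.21 CPM) were lower in KO. The part of the neutrophil genes in the results below was not tested.

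Dnmt1 is given 3 start sites by RefSeq in mouse build GRCm38.p6, and it is known to use different first exons in different cells, oocytes among them. The files count 3′ ends and cannot show which start a transcript came from. The upstream sequence of the first 2 starts is shown because they differ in CpG, the dinucleotide that the Dnmt enzymes methylate, and lie on the minus strand of chromosome 9 at chr9:20959889-20960138 and chr9:20952980-20953229, 6909 bases apart. Each run holds the 250 bases before the start, 5′ to 3′, with every CG in capitals.
Dnmt1 start 1: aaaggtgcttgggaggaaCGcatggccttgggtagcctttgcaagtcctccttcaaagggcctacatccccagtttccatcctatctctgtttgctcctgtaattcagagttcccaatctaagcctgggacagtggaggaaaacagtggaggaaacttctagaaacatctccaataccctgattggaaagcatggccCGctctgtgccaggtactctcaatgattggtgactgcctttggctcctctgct
Dnmt1 start 2: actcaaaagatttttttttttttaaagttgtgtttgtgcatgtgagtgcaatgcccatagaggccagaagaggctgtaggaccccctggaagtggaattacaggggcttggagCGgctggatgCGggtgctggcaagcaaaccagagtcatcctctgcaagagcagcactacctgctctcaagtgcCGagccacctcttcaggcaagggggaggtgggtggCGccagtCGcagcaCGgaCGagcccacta
Counted over the RefSeq window of 300 bases that runs 250 bases before to 50 bases after a start, start 1 held 2 CpG, start 2 held 12 and start 3 held 33, against a median of 7 (quartiles 3 and 20) over 32851 mouse windows. Windows of the other members held from 13 CpG (Asxl1) to 57 (Tet2), and that of Tet2 had more CpG than 99.8% of all windows. All members other than Dnmt1 at its first start were above the median of 7.

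Dnmt1 and Ezh2 moved together with cell-cycle transcripts below, and a short stretch common to both windows is shown for that reason. The 8 bases TTTGGCGC, in capitals here, are a form of the site to which E2F factors, regulators of S phase genes, can bind. In Dnmt1 the match began 33 bases after start 3 (chr9:20952574-20952600, minus strand) and in Ezh2 3 bases after the start (chr6:47595010-47595037, minus strand).
Dnmt1 start 3: cggggcagcgTTTGGCGCgggctgtgc
Ezh2: ggttgctgcgTTTGGCGCtcggtccggt
Searched on both strands (TTTGGCGC or GCGCCAAA), these letters were in 0.514% of the 32851 windows and in no window of the other 8 members. TTTCGCGC (or GCGCGAAA) was in 0.323% of windows and, among the members, only in that of Dnmt1 start 3, where it began 219 bases before the start and did not overlap the other match. TTTCCCGC (or GCGGGAAA) was in 1.07% of windows and in none of the members. The 3 letter strings were chosen after the windows had been read, and a match describes the sequence alone.

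In the WT pool the order of levels was Dnmt1 at 243.9 CPM (237.4 to 250.6), Ezh2 at 194.5 CPM, Dnmt3a at 93.9, Tet1 at 68.3, Dnmt3b at 54.6, Ezh1 at 30.5 and Tet3 at 23.9. Bmi1 at 13.4 CPM, Asxl1 at 12.8 and Tet2 at 12.7 closed the order, and these last 3 had overlapping intervals while all earlier neighbours were apart. In the KO pool Ezh2 at 150.9 CPM (144.9 to 157.0) and Dnmt1 at 142.7 CPM (136.9 to 148.6) overlapped at the top, followed by Dnmt3a at 117.4. Tet1 at 70.6 and Dnmt3b at 67.9 CPM overlapped each other, as did Tet3 at 41.3 and Asxl1 at 38.8, and Tet2 at 24.8, Bmi1 at 20.7 and Ezh1 at 20.4 CPM each overlapped their neighbour. The 3′ UMIs count molecules and were not divided by transcript length. The levels placed Dnmt1 and Ezh2 above 94.1% and 92.3% of the genes of the table in WT, and Tet2 above 29.3%. Ezh1 changed place most, standing above Tet3, Bmi1, Asxl1 and Tet2 in WT and last in KO, although its interval in KO overlapped that of Bmi1.

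**Figure D1:**
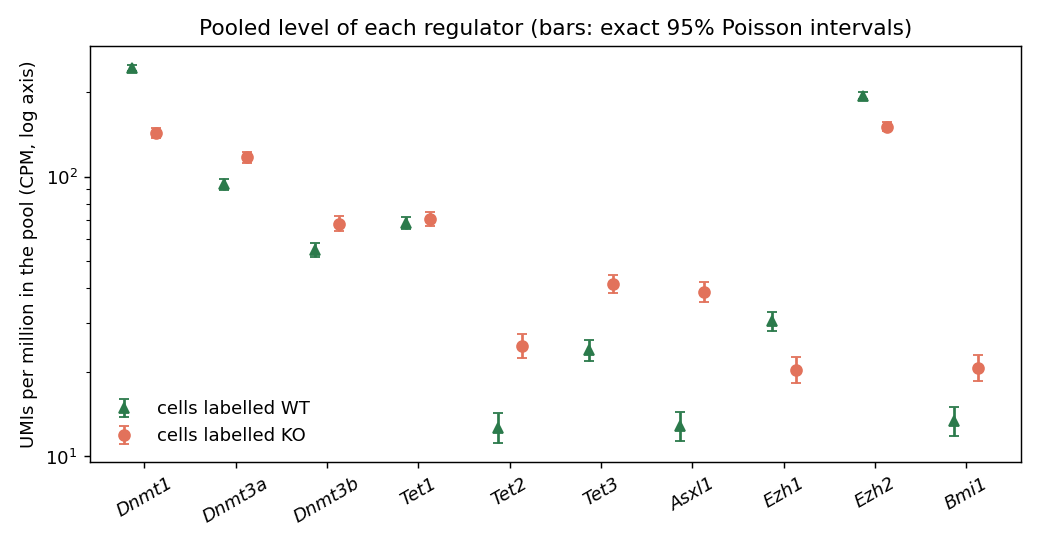
Level of each of the 10 genes in CPM (log axis) in the pool of 259 WT cells (triangles) and of 234 KO cells (circles), with exact 95% Poisson intervals. Dnmt1 stands at 243.9 and 142.7 CPM, and Asxl1 at 12.8 and 38.8 CPM.

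Of the 10 members, 4 were at least 1.5 times as high in KO as in WT, against 17.2% of all 10720 genes, and 1 was at least 1.5 times lower, against 15.5%. Counting intervals lay above a ratio of 1 for 6 members, against 39.2% of all genes, and below it for 3, against 35.7%. With such backgrounds the counts describe these genes and set them apart from the table by little. The median log2 ratio was 0.32 over the 10 members and 0.02 over all genes.

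Dnmt1, the maintenance methyltransferase, had 5239 UMIs in WT and 2309 in KO. Over single WT cells its level ran from 0 through a median of 89.1 to 3058 CPM, and over single KO cells from 0 through a median of 20.5 to 1109 CPM. The log2 ratio of the pools was -0.77 (-0.84 to -0.70). Both pools had cells without a Dnmt1 UMI, so their ranges overlapped, and the highest WT cell stood above every KO cell. When every cell was thinned to 20000 UMIs, 62.2% of WT cells (56.0 to 68.1%, exact binomial) and 48.3% of KO cells (41.7 to 54.9%) had a Dnmt1 UMI. The difference, KO minus WT, was -13.9 points. These binomial intervals take cells as independent draws, so their overlap or lack of overlap is not a test between genotypes. Before thinning the shares were 78.4% and 56.8%.

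A large part of the Dnmt1 difference in pooled CPM lay in the oocyte-transcript cells. These 71 cells held 27.3% of the UMIs of the WT pool and 50.1% of its Dnmt1 UMIs, at 448.6 CPM compared with 167.2 CPM in the other 188 WT cells, a ratio of 2.68 (2.54 to 2.83). Of the 10 WT cells with the most Dnmt1 UMIs, 8 were oocyte-transcript cells, and the first of them, with 530 Dnmt1 UMIs, had 62963 CPM of the oocyte list. The excess lay in part of the class. At 20000 UMIs per cell, 67.6% of oocyte-transcript cells and 60.1% of the other WT cells had a Dnmt1 UMI. Means were 6.65 and 3.20 UMIs per cell, but the median was 2 in both. Of the 2627 Dnmt1 UMIs of the class, 1181 were in 5 cells. Spearman's rho of Dnmt1 with the summed oocyte list was 0.05 over WT cells. Without the oocyte-transcript cells in either pool, Dnmt1 stood at 167.2 CPM in WT and 143.1 CPM in KO, a log2 ratio of -0.22 (-0.31 to -0.14). UMIs were then seen in 60.1% of cells in WT (52.7 to 67.2%) and 48.1% in KO (41.5 to 54.7%), a difference of -12.1 points.

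Other members also differed inside the WT pool between the oocyte-transcript cells and the rest. Of the 10, 3 were at least 1.5 times higher there (Dnmt1, Bmi1 and Ezh1), against 20.2% of all genes, and 1 was at least 1.5 times lower (Asxl1), against 23.2%. Counting intervals lay above a ratio of 1 for 5 members, against 32.7% of genes, and below it for 3, against 39.1%. Bmi1 stood at 22.0 CPM in the 71 cells and 10.1 CPM in the others, a ratio of 2.18 (1.71 to 2.77). Asxl1 stood at 4.44 and 15.9 CPM, a ratio of 0.278 (0.178 to 0.418). Ezh2 was close to even, at 174.9 and 201.9 CPM, a ratio of 0.866 (0.806 to 0.929).

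Dnmt3a and Dnmt3b, the de novo methyltransferases, differed less between the pools. Dnmt3a had 2016 UMIs in WT and 1900 in KO, with a log2 ratio of 0.32 (0.23 to 0.41). It was found in 123 of 259 WT and 117 of 234 KO cells at 20000 UMIs, and its ratio without oocyte-transcript cells was 0.40 (0.30 to 0.50). Dnmt3b was counted 1172 times in WT and 1098 times in KO (log2 ratio 0.31, 0.19 to 0.43), but its direction rested on 1 cell and on how cells were weighted. A single KO cell held 203 of the 1098 UMIs (18.5%), without which the log2 ratio was 0.06, and with every cell thinned to equal depth before summing it was -0.30. Dnmt3a made up 63.2% of the UMIs of these enzymes in WT (61.5 to 64.9%) and 63.4% in KO (61.6 to 65.1%). Dnmt1 made up 62.2% of the UMIs of all 3 methyltransferases in WT and 43.5% in KO, or 53.4% and 43.6% without oocyte-transcript cells.

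The Tet genes encode the enzymes that oxidize methylated cytosine. Tet1, the most abundant of them, had 1466 UMIs in WT and 1142 in KO, and its log2 ratio of 0.05 (-0.06 to 0.16) had an interval that held 0. Tet2 was counted 272 times in WT and 401 times in KO (log2 ratio 0.97, 0.74 to 1.20). For Tet3 the counts were 514 and 668 (log2 ratio 0.79, 0.62 to 0.96). A single KO cell held 87 of its 668 UMIs and a single WT cell 69 of its 514. Without the top KO cell the Tet3 log2 ratio was 0.61. Without the cell-cycle-high cells (defined below) it was 0.56 (0.37 to 0.74), under 1.5-fold. Tet2 and Tet3 were thus higher in KO while Tet1 was level, and the make-up of the family differed: Tet1 was 65.1% of Tet UMIs in WT (63.1 to 67.1%) and 51.7% in KO (49.5 to 53.8%), Tet2 12.1% and 18.1%, and Tet3 22.8% and 30.2%. The shift was of like size without oocyte-transcript cells, where Tet1 made up 63.5% and 51.4%. Few cells carried the Tet2 signal, since 9 WT and 6 KO cells together held 50% of its UMIs in their pools, and without its top KO cell, which held 72 of 401 UMIs, its log2 ratio was 0.73. At 20000 UMIs, 13.9% of WT and 16.7% of KO cells had a Tet2 UMI, and 20.8% and 23.1% a Tet3 UMI. The shares with at least 1 UMI were thus close while the sums differed. With at least 2 UMIs, the shares were 6.18% of WT and 12.4% of KO cells for Tet2, and 12.4% and 15.8% for Tet3.

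Asxl1, the partner of Bap1, differed most of the 10 genes. It had 275 UMIs in WT and 627 in KO, 12.8 and 38.8 CPM, a log2 ratio of 1.60 (1.39 to 1.81) that exceeded those of 97.8% of all genes. The highest single cell stood at 355.7 CPM in WT and 590.7 CPM in KO, and the median cell was at 0 in both. The share of cells with an Asxl1 UMI at 20000 UMIs was 13.1% in WT (9.27 to 17.9%) and 24.8% in KO (19.4 to 30.8%), a difference of 11.7 points. Without oocyte-transcript cells the log2 ratio was 1.29 (1.07 to 1.51). The shares were then 14.9% (10.1 to 20.8%) and 25.1% (19.7 to 31.2%), a difference of 10.2 points.

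Ezh2 and Ezh1, the alternative catalytic subunits of PRC2, were both lower in KO, by less than 1.5-fold. Ezh2 had 4178 UMIs in WT and 2441 in KO, a log2 ratio of -0.37 (-0.44 to -0.29), and -0.41 (-0.49 to -0.34) without oocyte-transcript cells. Ezh1 was counted 654 times in WT and 330 times in KO (log2 ratio -0.58, -0.77 to -0.39). Its log2 ratio was -0.37 without the WT cell that held 93 of its UMIs, an oocyte-transcript cell. Without all cells of that class it was -0.40 (-0.61 to -0.19). Ezh2 accounted for 86.5% of the UMIs of both genes in WT and 88.1% in KO. Both genes were seen in the same cell in 9.27% of WT and 11.1% of KO cells at 20000 UMIs, Ezh2 alone in 47.9% and 41.0%, and Ezh1 alone in 26 WT and 14 KO cells.

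Bmi1, the PRC1 subunit, was scarce. It had 287 UMIs in WT and 335 in KO, 13.4 and 20.7 CPM, with a log2 ratio of 0.63 (0.40 to 0.86). A single WT cell held 52 of the 287 UMIs, and that cell was an oocyte-transcript cell. Without this class the ratio was larger, 1.04 (0.76 to 1.32), at 10.1 CPM in WT and 20.8 CPM in KO. Its share of cells at 20000 UMIs was 10.8% in WT (7.30 to 15.2%) and 15.8% in KO (11.4 to 21.1%).

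The transcript of the egg coat protein Zp3, which HSCs should lack, served as a gauge of foreign RNA. At 20000 UMIs it was present in 44.8% of WT cells (38.6 to 51.1%) and 8.12% of KO cells (4.96 to 12.4%). In WT only the share of Dnmt1 had an interval above that of Zp3. Ezh2 (50.9 to 63.3%) and Dnmt3a (41.3 to 53.8%) had larger shares than Zp3 with overlapping intervals. The shares of the other 7 genes were at or below that of Zp3. Zp3 is itself on the oocyte list, and without oocyte-transcript cells it was present in 32.4% of WT cells (25.8 to 39.6%). There the intervals of Dnmt1 and Ezh2 (both 52.7 to 67.2%) lay above that of Zp3. Dnmt3a (46.8%), Tet1 (38.8%) and Dnmt3b (37.8%) had larger shares than Zp3 with overlapping intervals, and the remaining members had smaller shares. The shares printed above are therefore shares of cells with a UMI and not of expressing cells. In KO all 10 members had larger shares than Zp3, but the intervals of Bmi1 (11.4 to 21.1%) and Tet2 (12.1 to 22.1%) overlapped that of Zp3.

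**Figure D2:**
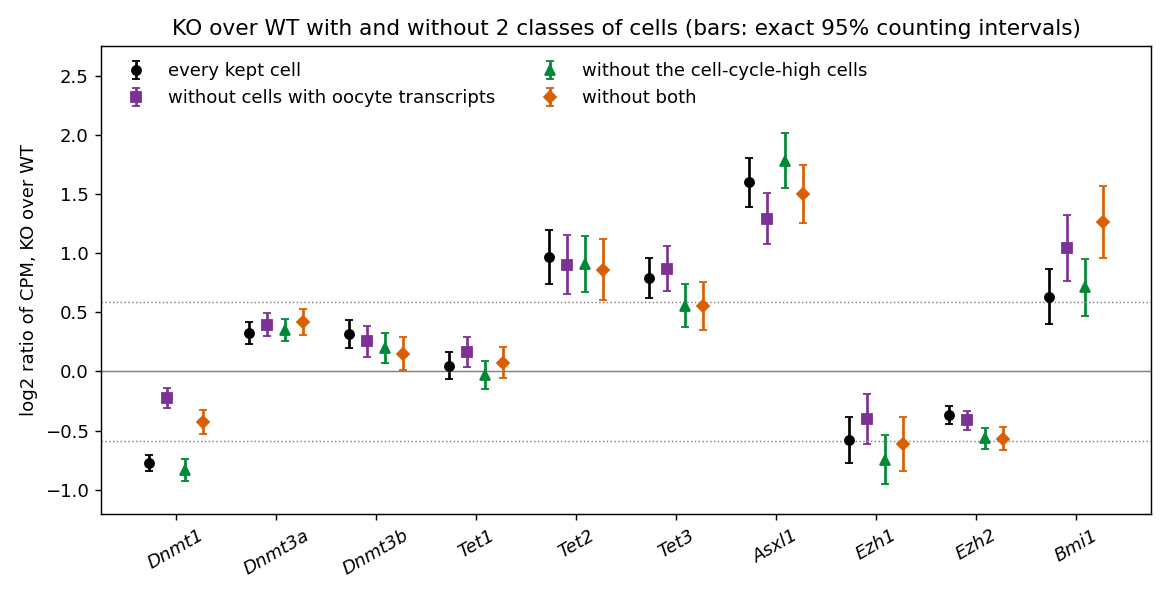
Log2 ratio of CPM, KO over WT, for the 10 genes over every kept cell and without the oocyte-transcript cells, the cell-cycle-high cells (defined below) or both, with exact 95% counting intervals; dotted lines mark 1.5-fold. Dnmt1 moves from -0.77 to -0.22 without the oocyte-transcript cells, while Asxl1 stays at 1.29 or above in all 4 sets.

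Without oocyte-transcript cells, 4 members were at least 1.5 times higher in KO (Tet2, Tet3, Asxl1 and Bmi1), against 18.8% of all genes, and none was 1.5 times lower, against 14.2%. No test across libraries could be made by any tool, so this count of 0 is one of size alone, and in that set 7 members had intervals above a ratio of 1, against 39.6% of genes, and 3 below it, against 33.5%.

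The spread among cells was wider than counting error for every member. At 20000 UMIs per cell the median count was 2 for Dnmt1 in WT and 0 in KO, 1 for Ezh2 in both pools, and 0 to 0.5 for all others. The variance of the thinned counts was 3.31 times the mean for Tet3 in WT, the smallest ratio, and 12.9 times the mean for Dnmt1 in WT, the largest, where pure counting gives 1. The counting intervals are thus narrower than the spread between cells. The cells that together held 50% of a member's UMIs numbered from 6 to 22 per pool. A cell had UMIs of a median of 3 of the 10 members in both pools, with a range of 0 to 7, and 4 WT and 9 KO cells had none.

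**Figure D3:**
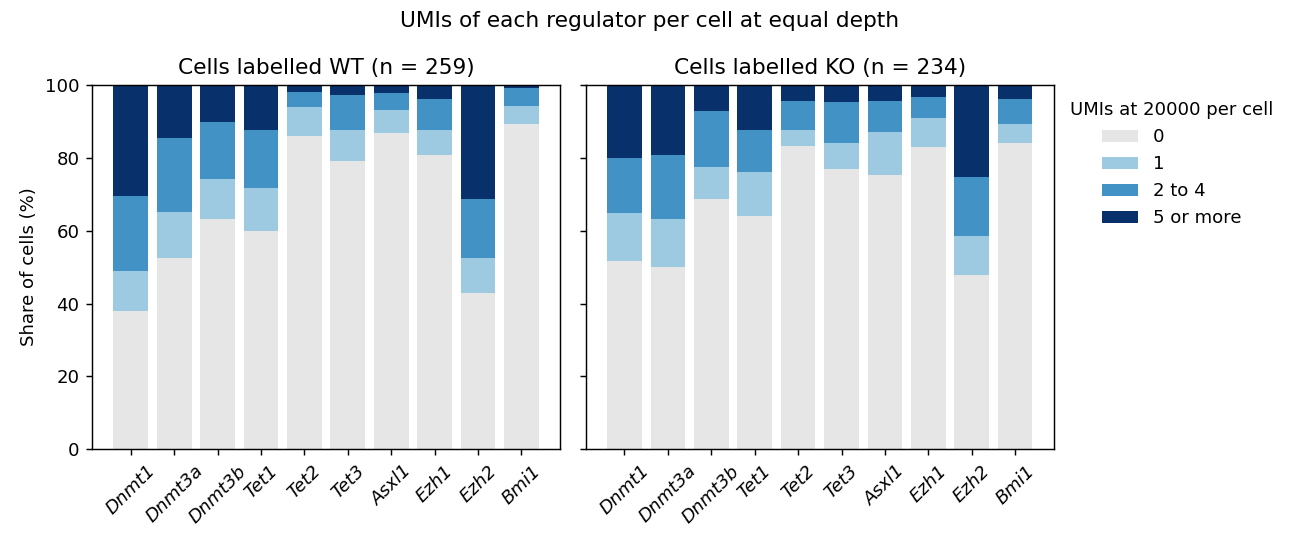
Share of cells (%) with 0, 1, 2 to 4, or 5 or more UMIs of each gene after thinning every cell to 20000 UMIs, for 259 WT cells (left) and 234 KO cells (right). Dnmt1 reaches 5 UMIs in 30.5% of WT and 20.1% of KO cells, Ezh2 in 31.3% and 25.2%, and Bmi1 in 0.772% and 3.85%.

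Replication and division draw on several of these genes, so the members were compared within each genotype between cells rich and poor in cell-cycle transcripts. The 49 kept cells (10%) with the highest sum of 45 S phase and G2M genes, none of them a member, are called cell-cycle-high; 28 were WT and 21 were KO, all had over 7589 CPM of the lists, and 14 cells lay within 10% of that limit. They were also deeper, with a median of 120880 UMIs in WT and 68863 in KO, against 53048 and 48726 in the other cells. Among the members, Dnmt1 and Ezh2 were the ones higher in them in both pools.

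Dnmt1 stood at 539.7 CPM in the WT cell-cycle-high cells and 179.4 CPM in the other WT cells, a ratio of 3.01 (2.84 to 3.18). In KO it stood at 427.7 and 100.6 CPM, a ratio of 4.25 (3.90 to 4.62). Because 5 of the 28 WT cells were also oocyte-transcript cells, and held 1181 Dnmt1 UMIs, the WT ratio was taken again without that class and was 2.26 (2.08 to 2.45). Ezh2 stood at 368.7 and 156.6 CPM in WT, a ratio of 2.35 (2.21 to 2.51), and at 456.6 and 105.7 CPM in KO, a ratio of 4.32 (3.98 to 4.69). Uhrf1, which brings Dnmt1 to newly copied DNA, had ratios of 2.84 in WT and 5.81 in KO. At 20000 UMIs, 89.3% of WT and 95.2% of KO cell-cycle-high cells had an Ezh2 UMI, compared with 53.2% and 47.9% of the other cells, and Dnmt1 was seen in 85.7% of the cell-cycle-high cells of both genotypes and in 59.3% and 44.6% of the others.

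Of the remaining members, Dnmt3a, Dnmt3b, Tet1, Tet2 and Bmi1 had a lower pooled CPM in the cell-cycle-high cells of both genotypes. In WT, 2 members were at least 1.5 times higher there, against 18.5% of all genes, and 6 were at least 1.5 times lower, against 34.1%, with counting intervals above a ratio of 1 for 3 members, against 29.5%, and below it for 7, against 44.4%. In KO, 3 were higher, against 21.8%, and 4 were lower, against 33.7%, with intervals above a ratio of 1 for 3, against 27.5%, and below it for 6, against 40.1%. In WT without the oocyte-transcript cells, 3 were at least 1.5 times higher, against 18% of genes, and 5 were lower, against 36.6%, with intervals above a ratio of 1 for 3, against 26.2%, and below it for 6, against 43.7%. Dnmt3a was lower in both pools, with ratios of 0.742 (0.652 to 0.843) in WT and 0.502 (0.417 to 0.600) in KO, as were Tet1 (0.511 and 0.722), Tet2 (0.364 and 0.412) and Dnmt3b (0.400 and 0.762). Bmi1 had 1 UMI in the KO cell-cycle-high cells and 334 in the other KO cells, a ratio of 0.0203 (0.000512 to 0.114), and a ratio of 0.575 (0.385 to 0.833) in WT, although without oocyte-transcript cells Bmi1 stood at 10.9 and 9.93 CPM, a ratio with an interval of 0.721 to 1.63. Tet3 and Asxl1 differed in direction between the pools: Tet3 was lower in the WT cell-cycle-high cells (0.527) and higher in those of KO (1.58), where 1 cell held 87 of its 126 UMIs, and Asxl1 was higher in WT (1.45) and lower in KO (0.626). Ezh1 was lower in the WT cell-cycle-high cells (0.404, 0.299 to 0.536) and level in those of KO (1.02, 0.719 to 1.40). The difference between the pools was not tested for these 3 genes.

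**Figure D4:**
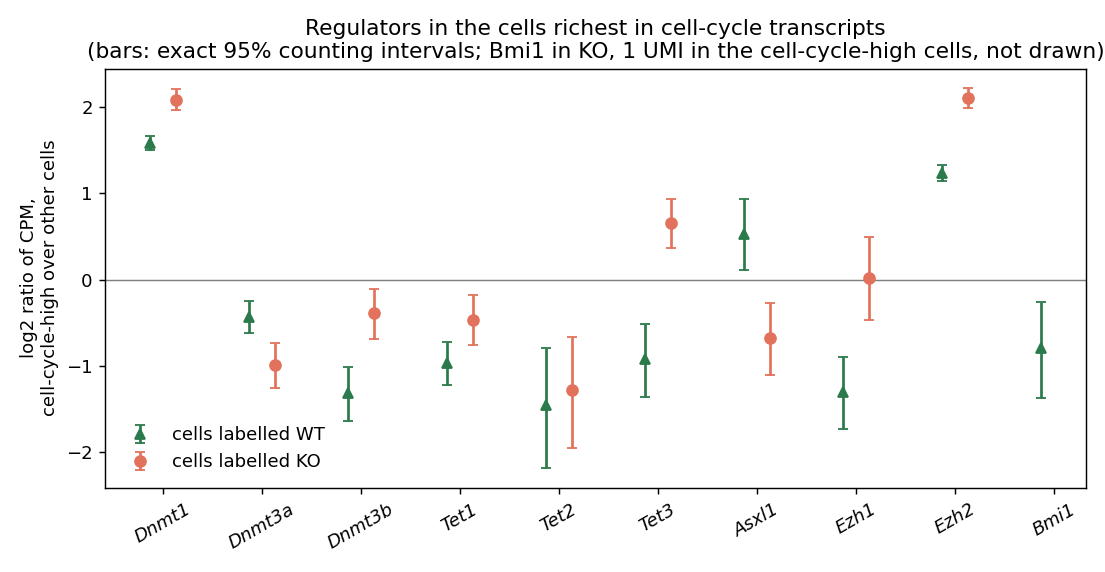
Log2 ratio of CPM between cell-cycle-high cells and the other cells of the same genotype, with exact 95% counting intervals, for WT (triangles; 28 against 231 cells) and KO (circles; 21 against 213 cells). Dnmt1 and Ezh2 stand above 1 in both genotypes, and Tet2 stands below -1 in both.

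With the cell-cycle-high cells left out, Dnmt1, Ezh2 and Ezh1 were again lower in KO. Dnmt1 stood at 179.4 CPM in WT and 100.6 CPM in KO, a log2 ratio of -0.83 (-0.93 to -0.74), and Ezh2 at 156.6 and 105.7 CPM, a log2 ratio of -0.57 (-0.66 to -0.47). Ezh1 had a log2 ratio of -0.74 (-0.95 to -0.54) there, and passed 1.5-fold. In that set, 3 members were at least 1.5 times higher in KO, against 16.9% of genes, and 2 were lower, against 16.8%, with intervals above a ratio of 1 for 6, against 38%, and below it for 3, against 36.1%. With both classes of cells left out, 165 WT and 210 KO cells remained, in which Dnmt1 had a log2 ratio of -0.42 (-0.53 to -0.32), Ezh2 of -0.57 (-0.67 to -0.47), and Tet3 of 0.55 (0.35 to 0.75), while Asxl1 stood at 14.5 CPM in WT and 40.9 CPM in KO, an interval of the log2 ratio of 1.26 to 1.74. There, 3 members were at least 1.5 times higher in KO, against 18.8% of genes, and 1 was lower, against 16.2%, with intervals above a ratio of 1 for 6, against 38.1%, and below it for 3, against 34%. In the cell-cycle-high cells alone Ezh2 was higher in KO, at 456.6 compared with 368.7 CPM, a log2 ratio of 0.31 (0.19 to 0.43). Among them, 1 KO cell held 210 of the 950 Ezh2 UMIs and 1 WT cell held 167 of the 1418. In these cells 3 members were at least 1.5 times higher in KO, against 32.3% of genes, and 1 was lower, against 27%, with intervals above a ratio of 1 for 6, against 34.6%, and below it for 2, against 30.9%. The summed G2M list was 1745 CPM in the WT pool and 1059 CPM in the KO pool, and the S phase list 2168 and 2081 CPM. These sums include the oocyte-transcript cells. In WT, the median sum of both lists was 2089 CPM in that class and 1564 CPM in the other cells, whereas Mki67 stood at 51.7 and 118.5 CPM. The part of that class in the G2M difference was not tested. Mki67, a marker of dividing cells, had a log2 ratio of -0.06 (-0.16 to 0.03), and of -0.30 (-0.40 to -0.20) without oocyte-transcript cells.

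At 20000 UMIs, Spearman's rho with the sum of the S and G2M lists was taken over 259 WT and 234 KO cells. For Dnmt1 it was 0.41 in WT and 0.42 in KO, and for Ezh2 0.38 and 0.25. For Dnmt3a it was 0.16 and 0.05, and for Dnmt3b 0.08 and 0.06. It was negative in both pools for Tet1, Tet2 and Bmi1. Dnmt1 and Ezh2 had a rho of 0.34 with each other in WT and 0.21 in KO, and both were detected in 42.5% of WT and 28.2% of KO cells. These are descriptions, since the cells shared libraries and the lists' sum depends on each cell's depth. Among 3117 genes with at least 1 UMI per thinned cell in both pools, those most like Dnmt1 by the lower of the rho values were Mcm5, a replicative helicase subunit and itself on the S phase list (0.36 in WT and 0.44 in KO), Tipin, a replication fork protein (0.34 and 0.36), and Ptma (0.33 and 0.38). For Ezh2 they were Stmn1, a microtubule regulator (0.35 and 0.32), Ppia (0.31 and 0.38) and Rrm1, a ribonucleotide reductase subunit on the S phase list (0.29 and 0.30). For Dnmt3a (Itgb1, Crip1 and Wars), Dnmt3b (Mrps11, Prmt3 and Slc25a5) and Tet1 (Ampd2, Casp6 and Ifi203) the lower rho was at most 0.17, too weak in such sparse counts to be a finding, and the other 5 members were too sparse to be ranked.

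**Figure D5:**
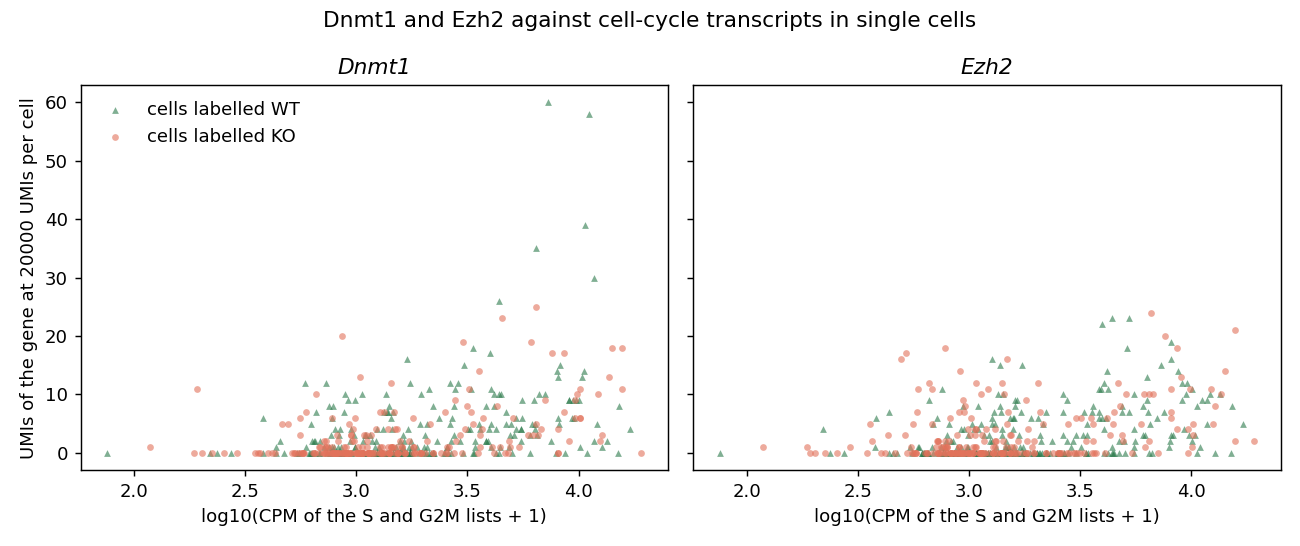
UMIs of Dnmt1 (left) and Ezh2 (right) in single cells thinned to 20000 UMIs, against log10 of the summed CPM of the S and G2M lists plus 1, for 259 WT cells (triangles) and 234 KO cells (circles). Both genes reach higher counts at the right of the axis (rho from 0.25 to 0.42), and the WT maximum of 60 Dnmt1 UMIs has no match in KO, whose maximum is 25.

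The other genes of these pathways were read from 7 lists, beside 17.2% of all genes at least 1.5 times higher and 15.5% at least 1.5 times lower in KO, and an all-gene median log2 ratio of 0.02. Among 10 further PRC2 subunits and cofactors, 0 were at least 1.5 times higher and 2 were lower, with a median log2 ratio of -0.07. Suz12, a core subunit, was the highest at 0.31 (0.19 to 0.43). The lowest was AU022751, listed in RefSeq as Ezhip, an inhibitor of PRC2, with 339 UMIs (15.8 CPM) in WT and 2 (0.124 CPM) in KO, a ratio of 0.00783 (0.000944 to 0.0285). It met the minimum of 0.5 UMI per cell through the WT cells alone, and without oocyte-transcript cells it had 16 UMIs in WT and 2 in KO, a ratio of 0.121 (0.0135 to 0.516). The other that was lower was Phf1, at -0.87 (-1.16 to -0.58). Of 21 further PRC1 genes, 3 were higher and 2 lower, with a median of 0.16. Scmh1, a Polycomb protein related to Scm of the fly, was the highest at 1.35 (1.12 to 1.58), and Pcgf1, a paralog of Bmi1 found in variant PRC1, the lowest at -1.91 (-2.21 to -1.63), or -0.55 without oocyte-transcript cells.

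Of 8 genes of the Asxl and Bap1 complex, 3 were higher and 0 lower, with a median of 0.34, from Foxk1 at -0.48 (-0.72 to -0.24) to Asxl2, the paralog of Asxl1, at 0.83 (0.70 to 0.97). Bap1 itself had a log2 ratio of -0.09 (-0.27 to 0.09). Of 13 partners and readers of DNA methylation, 4 were higher and 0 lower, with a median of 0.33, from Hells, a remodeler needed for DNA methylation, at -0.35 (-0.45 to -0.26) to Uhrf2 at 1.11 (0.90 to 1.32). Uhrf1 was level at 0.06 (-0.09 to 0.20). Of 10 genes of DNA demethylation and oxidation, 0 were higher and 2 lower, with a median of -0.20, from Idh1, which makes the 2-oxoglutarate that Tet enzymes use, at -0.67 (-0.89 to -0.45) to Cxxc5 at 0.44 (0.35 to 0.52).

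Of 12 H3K27 demethylases and trithorax genes, which oppose Polycomb, 2 were higher and 1 lower, with a median of -0.06, from Dpy30 at -0.65 (-0.73 to -0.57) to Kmt2b, a histone H3 lysine 4 methyltransferase, at 1.30 (6.75 CPM in WT and 16.6 in KO) among those with at least 0.5 UMI per cell. Of 8 known Polycomb targets, 3 were higher and 0 lower, with a median of 0.39, from Cdkn1c, a cell-cycle inhibitor, at -0.17 (-0.33 to -0.01) to Fgl2 at 0.88 (0.70 to 1.07). Without oocyte-transcript cells the medians of the 7 lists were -0.17, 0.32, 0.30, 0.39, -0.01, 0.13 and 0.52 in the same order, so that the H3K27 and trithorax list changed sign.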

How the data were processed

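Transcripts of single HSCs from 4 WT and 4 KO libraries (per the labels) had been aligned to the mm9 mouse transcriptome and deduplicated by UMI, with cells under 30% mapping, 2000 genes or 20000 transcripts excluded per the study's methods. The authors deposited log2 values of the normalized UMI counts plus 1 for 10720 genes with an average count above 0.2 in 586 cells. Undoing the log2 and dividing by each cell's smallest step gave whole UMI counts for 100% of values within 0.01, and these recovered counts were summed per genotype. Because the table holds the retained genes alone, 93 cells with under 2000 genes or 20000 UMIs in it were left out. The analysis used Python 3.11.15, numpy 2.4.6, scipy 1.17.1 and pandas 2.3.3, with intervals at the 95% level, a floor of 3 counts for lower counts in ratios over all genes (printed ratios with 1 or 2 counts use the counts themselves), and a fold of 1.5 as a rule of size. No model was fitted and no p-value is given, since columns name the genotype but not the library and cells are not replicates; the columns were therefore used as 1 pool per genotype. The recovery and the intervals were tested on simulated data in which every cell of a genotype had 1 profile and counting error alone. Members varied more than that among real cells, so the simulation does not cover the spread between cells. Cells were thinned to 20000 UMIs for shares and correlations, which left out no kept cell. No clusters or cell types were called, and doublets were not sought, since cells had been picked by hand. Counting by strand is not given in the sources used here. The RefSeq genes that overlap a member were not analysed here. Named genes were the 10 members; from each list the highest and lowest ratio among genes that averaged 0.5 UMI or more over kept cells; the 3 genes most like each member; and Med23, Zp3 and Mki67. Phf1, Bap1, Uhrf1, the sort marker genes and the neutrophil genes fell outside this rule and were named after their values were seen. The members and all lists were chosen with earlier results of these data known. Promoter windows and their coordinates are those of RefSeq on GRCm38.p6, in which all 10 members matched by symbol, and no coordinates of the mm9 data were used.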

Additional observations from a re-analysis of the deposited data

How the results depend on the processing

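Values are log2 ratios, KO over WT, unless said otherwise. With every cell thinned to 20000 UMIs before summing, they were -0.67 for Dnmt1, -0.30 for Dnmt3b, 0.56 for Tet3, 1.02 for Asxl1, -0.20 for Ezh2 and 0.99 for Bmi1. From means of the authors' normalized values they were -1.11 for Dnmt1, 0.098 for Dnmt3a, -0.34 for Dnmt3b, 0.46 for Tet2, 0.45 for Tet3 and 1.15 for Asxl1, with 2 members at least 1.5-fold higher. Differences of mean log2(CPM/100 + 1), a scale that shrinks low genes by construction, were -0.37 for Dnmt1, 0.14 for Dnmt3a, -0.083 for Dnmt3b, 0.066 for Tet2, 0.084 for Tet3, 0.16 for Asxl1, -0.050 for Ezh1, -0.16 for Ezh2 and 0.081 for Bmi1, with 0 members 1.5-fold higher and 0 lower. Without the top cell of each gene they were -0.63 for Dnmt1, 0.061 for Dnmt3b, -0.075 for Tet1, 0.73 for Tet2, 0.61 for Tet3, -0.37 for Ezh1, -0.47 for Ezh2 and 0.91 for Bmi1. With at least 3000 genes and 30000 UMIs per cell they were 0.23 for Dnmt3a, 0.57 for Dnmt3b and 0.51 for Tet2, with 2 members higher. Without oocyte-transcript cells they were -0.22 for Dnmt1, 0.16 for Tet1, 1.29 for Asxl1 and 1.04 for Bmi1, with 0 members lower, and without the cell-cycle-high cells 0.56 for Tet3 and -0.57 for Ezh2, with 2 members lower. Leaving out both classes, chosen after seeing the data, gave -0.42 for Dnmt1, 0.42 for Dnmt3a, 0.15 for Dnmt3b, 0.55 for Tet3, -0.57 for Ezh2 and 1.26 for Bmi1. Median-of-ratios and TMM scaling each gave 2 members lower, with all ratios shifted by -0.03, and a 2-fold rule gave 1 higher and 0 lower. Dnmt3b and Tet1 changed direction among these settings and the other 8 members did not.

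List medians also moved. From the authors' normalized values they were -0.28 (PRC2), -0.11 (methylation partners), -0.35 (demethylation) and 0.098 (Polycomb targets), and on the mean log2 scale 0.030 (Asxl partners), 0.027 (methylation partners), -0.021 (demethylation) and 0.043 (targets). Thinning gave 0.067 (methylation partners), 0.12 (trithorax) and 0.17 (targets). Leaving out top cells gave 0.082 (methylation partners). Without oocyte-transcript cells they were 0.32 (PRC1), -0.0080 (demethylation) and 0.13 (trithorax), without cell-cycle-high cells 0.58 (Asxl partners), and without both 0.51 (Asxl partners), 0.067 (demethylation), 0.089 (trithorax) and 0.56 (targets). The difference in share of cells, KO minus WT, was -21.5 points for Dnmt1 without thinning, and for Asxl1 5.77 points at 10000 UMIs and 5.87 points for at least 2 UMIs. The cause of these changes was not tested where the setting does not give it. No paired analysis was possible because no library is named for any cell, and leaving out each library in turn was not run for the same reason. Low counts in few cells limit Tet2, Asxl1, Ezh1 and Bmi1 most.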
